A study of Homo sapiens with 10 samples.

Results

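The 10 genes described here are noncoding hosts of small nucleolar RNAs (snoRNAs): SNHG1, SNHG5, SNHG6, SNHG7, SNHG8, SNHG12, SNHG15, SNHG16, GAS5 and ZFAS1. They were found by symbol in the long RNA tables, each on 1 of 57773 Ensembl rows, and all 10 passed the filter of at least 1 CPM (counts scaled to a common library size) in at least 2 libraries that left 18401 genes for testing. The libraries were 3 long RNA libraries labelled TAF1C, described as from BEAS-2B cells stably carrying a TAF1C vector. The other 2 long RNA libraries were described as from BEAS-2B cells stably carrying an empty vector (eV). BEAS-2B is an immortalised human bronchial epithelial line, TAF1C belongs to the SL1 complex, which brings RNA polymerase I to ribosomal RNA genes, and both vectors were described with a pCMV6 promoter under G418 selection. Whether the replicates grew as separate cultures, or a line was 1 clone, is not in the labels, so p-values reflect only how far these particular samples lie apart, which may be technical.

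Most human snoRNAs are cut out of the introns of a longer transcript made by RNA polymerase II. C/D box snoRNAs guide 2′-O-methylation and H/ACA box snoRNAs guide pseudouridylation, mainly of ribosomal RNA, so host genes tie nucleolar RNA modification to ordinary transcription. After splicing, many noncoding hosts leave a short-lived exonic RNA. Such RNAs often begin with a 5′ terminal oligopyrimidine (TOP) tract, as ribosomal protein mRNAs do, and several are removed by nonsense-mediated decay when translation is active.

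The long RNA libraries held between 34212883 and 37533366 counts in the libraries labelled TAF1C and 22809601 and 28476151 in the empty vector libraries. TAF1C itself was not higher where the label says so, at 64.0, 59.0 and 67.0 CPM in the libraries labelled TAF1C against 64.5 and 77.7 CPM with empty vector (log2 fold change -0.17 ± 0.13 (SE), edgeR adjusted p = 0.349), so groups carry the names of their labels. The empty vector libraries also stood apart from each other and from the others. Of 19 tested photoreceptor markers, 18 passed with lower levels in the libraries labelled TAF1C. ROM1 was lower too but did not pass (log2 fold change -1.50, edgeR adjusted p = 0.0600). The 20 photoreceptor markers of the list summed to between 19.5 and 25.4 CPM in the libraries labelled TAF1C and to 2129 and 1438 CPM in empty vector replicates 1 and 2, and no marker was at 0 in every library of a group. The 12 epithelial markers summed to between 1382 and 1497 CPM in the libraries labelled TAF1C and to 396 and 383 CPM with empty vector. Of the 9 tested epithelial markers 4 were higher in the libraries labelled TAF1C, among them the keratin KRT7, which made up most of the sum (1052, 967 and 1062 CPM, against 223 and 247 CPM with empty vector). EPCAM (log2 fold change -5.14) and ITGB4 (-1.16) were lower, and 3 did not pass. The 10 mesenchymal markers summed to between 2883 and 2928 CPM in the libraries labelled TAF1C and to 621 and 438 CPM with empty vector, with 3 of 9 tested higher, 1 lower and 5 not passing. The fibronectin gene FN1 was 11.6-fold higher in the libraries labelled TAF1C and made up most of the sum there (2416, 2455 and 2459 CPM). With empty vector FN1 was at 242 and 180 CPM. THY1 was the marker that was lower (log2 fold change -2.60). The part of these differences in the results on host genes was not tested. In bulk RNA, fewer cells of a type and less RNA per cell cannot be told apart. Whether the RNA of both groups came from the same cell line, as described, was not tested.

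The choice of members had not used the sequence at their starts. Promoter sequences of RefSeq (GRCh38.p14) were at hand for 8 of the 10 genes. The letters TATAA began 28 to 34 bases before the annotated start in 5 of them, on the gene's own strand. They began between 40 and 20 bases before the start in 4.22% of 27303 promoters and in 6 of 62 promoters of ribosomal protein genes. A C followed by at least 4 more pyrimidines, beginning within 10 bases of the start, stood in 6 of the 8, in 55 of the 62 and in 33.3% of all promoters. Both features stood together in 5 of the 8 and in 1.40% of all. On either strand and anywhere from 250 bases before to 50 bases after the start, TATAA was in 6 of the 8 and in 21.1% of all promoters, and the E-box letters CACGTG were in 1 of the 8 (SNHG7) and in 7.44% of all. A match is a description of letters, not of a bound site. The windows below run from 40 bases before to 20 bases from the annotated start, 5′ to 3′ on the gene's strand. They are shown for both genes that rose (SNHG8 and SNHG12), for ZFAS1 and SNHG5, which hold both features and did not pass the test with both empty vector libraries, and for GAS5 and SNHG1, which hold neither feature. Capitals mark TATAA and the pyrimidine tract.
SNHG8 (chr4:118278722-118278781, plus strand): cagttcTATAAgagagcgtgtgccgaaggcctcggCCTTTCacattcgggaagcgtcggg
SNHG12 (chr1:28581854-28581913, minus strand): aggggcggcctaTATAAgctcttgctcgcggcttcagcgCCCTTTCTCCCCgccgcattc
ZFAS1 (chr20:49278602-49278661, plus strand): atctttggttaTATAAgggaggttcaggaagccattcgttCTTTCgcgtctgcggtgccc
SNHG5 (chr6:85678714-85678773, minus strand): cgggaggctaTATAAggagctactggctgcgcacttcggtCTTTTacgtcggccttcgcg
GAS5 (chr1:173869026-173869085, minus strand): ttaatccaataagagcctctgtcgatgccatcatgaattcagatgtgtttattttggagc
SNHG1 (chr11:62855866-62855925, minus strand): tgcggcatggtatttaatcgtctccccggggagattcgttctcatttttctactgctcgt
The start used is the one RefSeq gives, and transcripts can begin at other bases.

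The long RNA comparison asked which transcripts differ between the libraries labelled TAF1C and the empty vector libraries. Rose and fell mean higher and lower in the libraries labelled TAF1C, not an effect of the vector. Of the 10 host genes, 2 rose, SNHG8 and SNHG12, 0 fell and 8 did not pass the edgeR quasi-likelihood test at an adjusted p under 0.05; 3 had an unadjusted p under 0.05. Of all genes tested, 15.8% rose and 22.6% fell, and 38.5% were called in either direction, so the share of raised hosts was near that of all genes. Among 2170 tested lincRNAs, antisense RNAs and processed transcripts, the biotypes the tables give to the 10 hosts, 5.48% rose and 29.0% fell. The hosts' median log2 fold change was 0.57, beside -0.10 for all genes. The 3 libraries labelled TAF1C lay above both empty vector libraries for 5 of the 10 hosts, as they did for 29.8% of all genes, and below both for 0 hosts and 34.4% of all genes. They lay above empty vector replicate 1 for 10 of 10 hosts (41.1% of all genes) and above replicate 2 for 5 (43.1% of all genes).

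**Figure D1:**
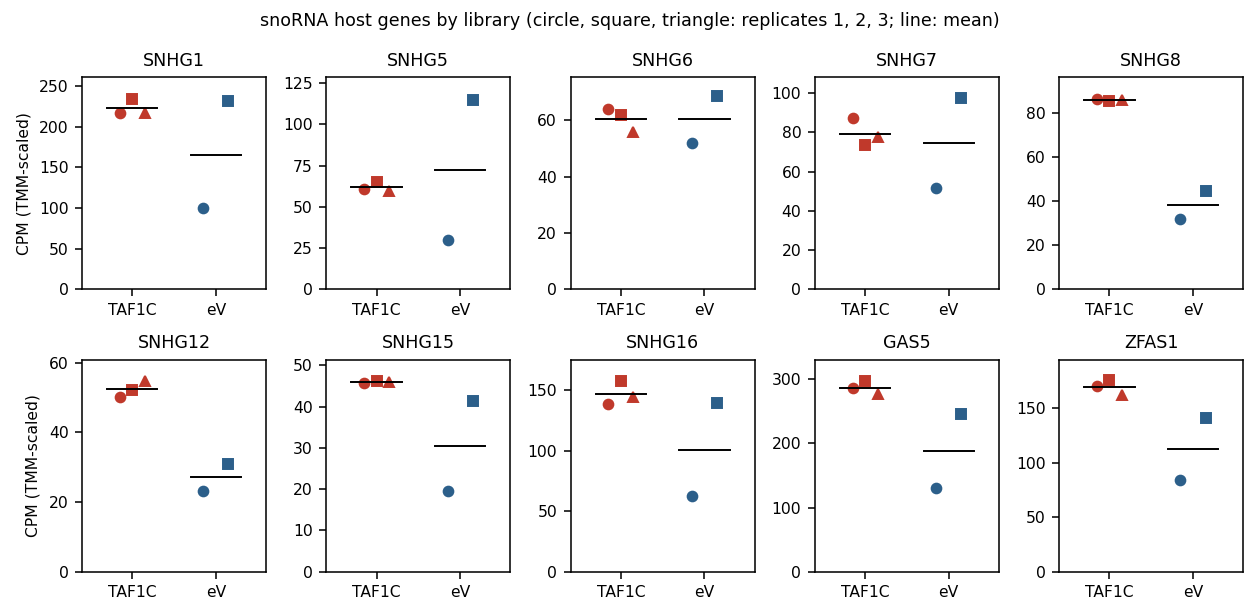
Normalised level (CPM with TMM factors, linear axes from 0) of each host gene in the 3 libraries labelled TAF1C and the 2 empty vector libraries, with group means as lines. SNHG8 and SNHG12 separate the groups widely, while for SNHG1, SNHG5, SNHG6, SNHG7 and SNHG16 the empty vector replicates lie on different sides of, or reach into, the range of the libraries labelled TAF1C.

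SNHG8, SNHG12, SNHG15 and SNHG7 hold H/ACA box snoRNAs, and both hosts that rose are among them; hosts of the 2 snoRNA classes were not tested against each other. SNHG8, whose intron holds SNORA24, was at 86.1, 85.2 and 85.5 CPM in the libraries labelled TAF1C and at 32.0 and 44.7 CPM with empty vector. The groups did not overlap, and the libraries labelled TAF1C were nearly equal. SNHG8 rose 2.23-fold (log2 fold change 1.16 ± 0.17 (SE), edgeR adjusted p = 0.00478) and passed under all 10 alternatives (adjusted p 6.32e-13 to 0.0341). SNHG12, which holds the H/ACA snoRNAs SNORA16A, SNORA44 and SNORA61 and the C/D snoRNA SNORD99, was at 50.3, 52.2 and 54.9 CPM in the libraries labelled TAF1C and at 23.3 and 31.0 CPM with empty vector. Each library labelled TAF1C was again above both of the others. SNHG12 rose 1.93-fold (log2 fold change 0.95 ± 0.16 (SE), edgeR adjusted p = 0.00786) and also passed under all 10 alternatives (adjusted p 3.67e-10 to 0.0477).

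SNHG15, the host of SNORA9, was at 45.6, 46.2 and 46.0 CPM in the libraries labelled TAF1C and at 19.5 and 41.2 CPM with empty vector. The groups did not overlap, but empty vector replicate 2 lay close below the libraries labelled TAF1C and replicate 1 far below them. SNHG15 did not pass (log2 fold change 0.60 ± 0.31 (SE), edgeR adjusted p = 0.177). SNHG7, which holds SNORA17A and SNORA17B, was at 87.1, 73.4 and 77.8 CPM in the libraries labelled TAF1C and at 51.7 and 97.7 CPM with empty vector. The empty vector replicates enclosed all 3 other libraries, and the difference on the log2 scale, 0.09 ± 0.27 (SE, edgeR adjusted p = 0.818), turned to -0.091 with library totals in place of TMM factors.

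Among the 6 hosts whose listed snoRNAs are all of the C/D class, 0 passed the edgeR test with both empty vector libraries, and 1, ZFAS1, had an unadjusted p under 0.05; with DESeq2 the count was also 0. GAS5, first described as a transcript that accumulates in growth-arrested cells and the host of a run of C/D snoRNAs, was at 287, 298 and 277 CPM in the libraries labelled TAF1C and at 131 and 245 CPM with empty vector. The groups did not overlap, and the empty vector replicates were further apart than replicate 2 was from the libraries labelled TAF1C. GAS5 did not pass (log2 fold change 0.61 ± 0.27 (SE), edgeR adjusted p = 0.125). ZFAS1, which holds SNORD12, SNORD12B and SNORD12C, was at 170, 175 and 162 CPM in the libraries labelled TAF1C and at 84.0 and 141 CPM with empty vector. The groups did not overlap here either, and ZFAS1 did not pass (log2 fold change 0.59 ± 0.23 (SE), unadjusted p = 0.0441, edgeR adjusted p = 0.0920).

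SNHG1, the host of SNORD22 and of the SNORD25 to SNORD31 group, was at 216, 234 and 216 CPM in the libraries labelled TAF1C and at 99.6 and 231 CPM with empty vector. SNHG16, the host of SNORD1A, SNORD1B and SNORD1C, was at 139, 158 and 144 CPM in the libraries labelled TAF1C and at 62.4 and 139 CPM with empty vector. In both genes empty vector replicate 2 stood within or beside the range of the libraries labelled TAF1C, and replicate 1 below all 3 of them. Their log2 fold changes were 0.42 ± 0.34 (SE, edgeR adjusted p = 0.366) for SNHG1 and 0.54 ± 0.33 (SE, edgeR adjusted p = 0.238) for SNHG16.

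SNHG5, which holds SNORD50A and SNORD50B, had the widest gap between the empty vector libraries of all 10 hosts. It was at 61.0, 65.4 and 59.7 CPM in the libraries labelled TAF1C and at 29.8 and 114.7 CPM in empty vector replicates 1 and 2. The difference between group means on the log2 scale, -0.22 ± 0.51 (SE, edgeR adjusted p = 0.758), is the balance of a value below and a value above the libraries labelled TAF1C. SNHG6, the host of SNORD87, was at 63.9, 61.8 and 55.9 CPM in the libraries labelled TAF1C and at 52.0 and 68.8 CPM with empty vector. The groups overlapped, and the log2 fold change was 0.0027 ± 0.16 (SE, edgeR adjusted p = 0.990).

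Set against each empty vector library alone, the hosts gave different answers. Here the spread comes from the 3 libraries labelled TAF1C, and the single empty vector library is assumed to vary like them. Against replicate 1 alone, 9 of the 10 hosts passed with higher levels in the libraries labelled TAF1C, beside 35.8% of all genes raised, 34.0% lowered and 69.9% called in that fit, and SNHG6 did not pass (edgeR adjusted p = 0.0907). The log2 fold changes of the 9 ran from 0.59 for SNHG7 to 1.39 for SNHG8. Against replicate 2 alone, 3 hosts were higher and passed and 3 were lower and passed, beside 29.0% raised, 29.5% lowered and 58.5% called of all genes. The raised hosts were SNHG8 (0.87 ± 0.09 (SE)), SNHG12 (0.69 ± 0.10 (SE)) and ZFAS1 (0.19 ± 0.08 (SE), edgeR adjusted p = 0.0384). The lowered hosts were SNHG5 (-0.95 ± 0.08 (SE)), SNHG7 (-0.36 ± 0.09 (SE)) and SNHG6 (-0.25 ± 0.09 (SE), edgeR adjusted p = 0.0221). SNHG1, SNHG15, SNHG16 and GAS5 had log2 fold changes between -0.12 and 0.16 against replicate 2 and did not pass. Of the 10 genes, SNHG8 and SNHG12 alone passed with both empty vector libraries together.

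**Figure D2:**
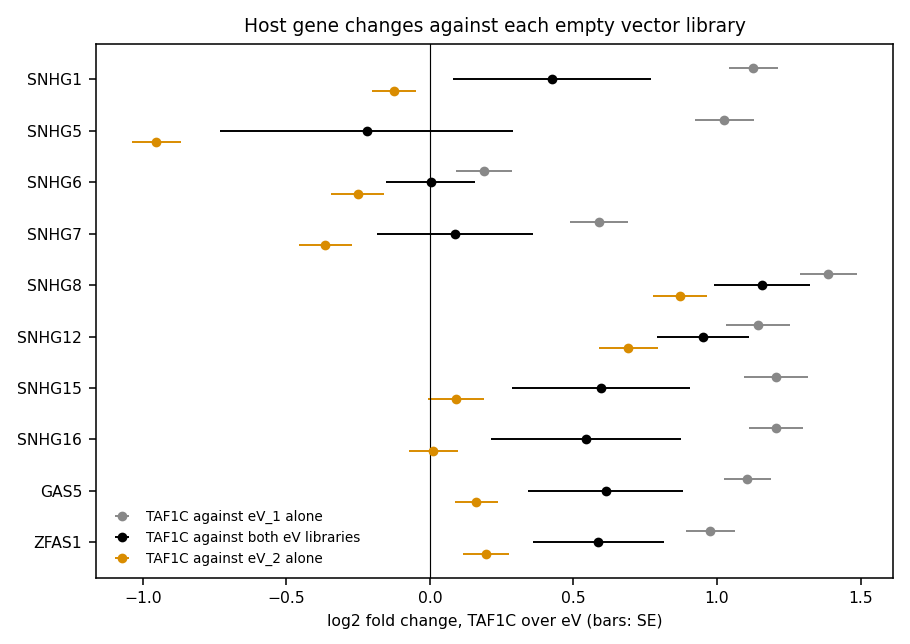
Log2 fold change of each host gene, libraries labelled TAF1C over empty vector, against empty vector replicate 1 alone (grey), both libraries (black) and replicate 2 alone (orange), with SE as bars. SNHG8 and SNHG12 lie to the right of 0 in every version, and SNHG5 runs from 1.03 against replicate 1 to -0.95 against replicate 2.

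The gap between the empty vector libraries had the same direction in all 10 hosts. Empty vector replicate 2 was higher than replicate 1 by 1.32-fold for SNHG6, 1.34-fold for SNHG12, 1.40-fold for SNHG8 and 1.68-fold for ZFAS1. It was 1.88-fold higher for GAS5, 1.89-fold for SNHG7, 2.12-fold for SNHG15, 2.23-fold for SNHG16, 2.32-fold for SNHG1 and 3.85-fold for SNHG5. On the scale of log2 (CPM + 0.5), the median difference of the hosts was 0.91, whereas over all tested genes it was -0.02, with 5% of genes under -1.90 and 5% over 0.97. Replicate 2 was above replicate 1 in 48.9% of all genes. Among the 3 libraries labelled TAF1C the hosts spanned 0.01 to 0.25 on that scale, beside a median span of 0.21 over all tested genes. With 1 library on each side, the difference between the empty vector libraries has no test.

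**Figure D3:**
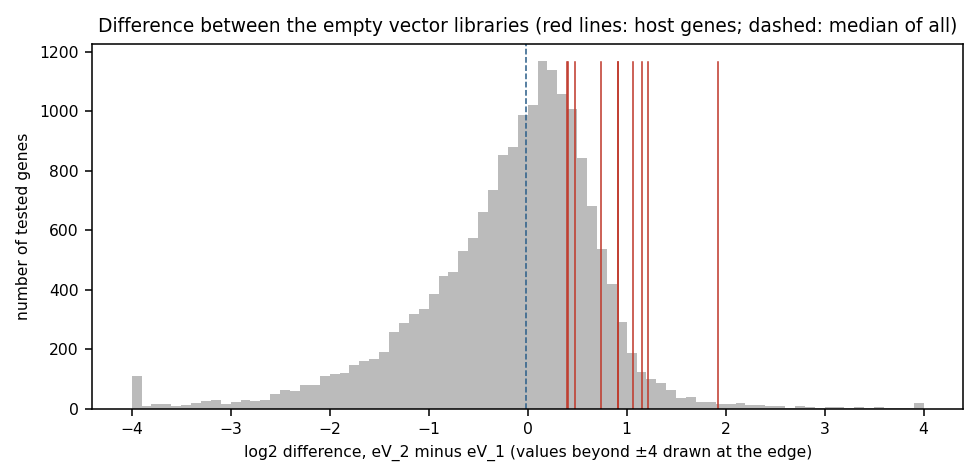
Histogram over 18401 tested genes of the log2 difference between empty vector replicates 2 and 1, on log2 (CPM + 0.5). The red lines of the 10 host genes all lie to the right of the dashed median of -0.02, from 0.40 for SNHG6 to 1.93 for SNHG5.

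Summed over the 10 hosts, the level was 1205, 1249.7 and 1179 CPM in the libraries labelled TAF1C and 585 and 1155 CPM in empty vector replicates 1 and 2. As a share of all counts, with no TMM factor, the hosts held 0.113%, 0.116% and 0.111% in the libraries labelled TAF1C and 0.0689% and 0.114% in the empty vector libraries. By either measure replicate 1 alone stood apart, and on the share replicate 2 lay within the range of the libraries labelled TAF1C. Of other measures of the libraries, the share of the most abundant genes was also lowest in replicate 1, whereas the number of genes detected placed the empty vector replicates on either side of the libraries labelled TAF1C. The 100 most abundant genes took 24.4% to 24.8% of counts in the libraries labelled TAF1C and 18.9% and 24.0% in empty vector replicates 1 and 2. At least 1 count was found for between 41277 and 42563 genes in the libraries labelled TAF1C, and for 46262 and 37391 genes in the empty vector replicates. The part of these measures in the host gene levels was not tested.

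The long RNA tables also count snoRNAs as rows of their own. Of 35 snoRNAs listed for the 10 hosts, 8 could be matched to a single Ensembl ID, and 4 of these passed the filter. All 3 snoRNAs of ZFAS1 were among them. SNORD12 was at 6.33, 9.35 and 5.998 CPM in the libraries labelled TAF1C and at 3.27 and 3.88 CPM with empty vector (log2 fold change 1.01 ± 0.31 (SE), edgeR adjusted p = 0.0481). SNORD12B was at 3.62, 4.06 and 4.05 CPM in the libraries labelled TAF1C and at 1.64 and 2.28 CPM with empty vector (log2 fold change 0.997 ± 0.30 (SE), edgeR adjusted p = 0.0475). SNORD12C was at 6.44, 6.88 and 5.97 CPM in the libraries labelled TAF1C and at 2.90 and 4.62 CPM with empty vector (log2 fold change 0.77 ± 0.30 (SE), edgeR adjusted p = 0.0914). The groups of all 3 did not overlap, and SNORD12 and SNORD12B rose. Both calls were close to the threshold and were lost without any 1 of the libraries labelled TAF1C, with library totals, with upper-quartile factors, with no filter and with the replicate number as a block. Over the 10 alternatives the adjusted p ran from 0.000642 to 0.165 for SNORD12 and from 0.00227 to 0.276 for SNORD12B.

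Whether a read in these rows came from a finished snoRNA or from the unspliced host cannot be told apart in these tables. The snoRNA rows held 8.80% (95% Wilson interval 8.14% to 9.52%), 10.4% (9.66% to 11.1%) and 8.99% (8.28% to 9.76%) of the joint counts of ZFAS1 and its 3 snoRNAs in the libraries labelled TAF1C. In empty vector replicates 1 and 2 they held 8.51% (7.47% to 9.67%) and 7.09% (6.36% to 7.90%). The intervals cover counting error only. That of replicate 1 overlaps all 3 of the libraries labelled TAF1C, while that of replicate 2 lies below them. SNORD1B of SNHG16 was at 0.627, 1.15 and 1.21 CPM in the libraries labelled TAF1C and at 0.409 and 0.747 CPM with empty vector (log2 fold change 0.77 ± 0.52 (SE), edgeR adjusted p = 0.284). SNORD99 of SNHG12 missed the filter, with 43, 34 and 30 counts in the libraries labelled TAF1C and 19 and 20 counts in the empty vector libraries. SNORD79 of GAS5 had at most 4 counts in a library, and SNORD29 of SNHG1 and SNORD87 of SNHG6 had 0 in every library.

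**Figure D4:**
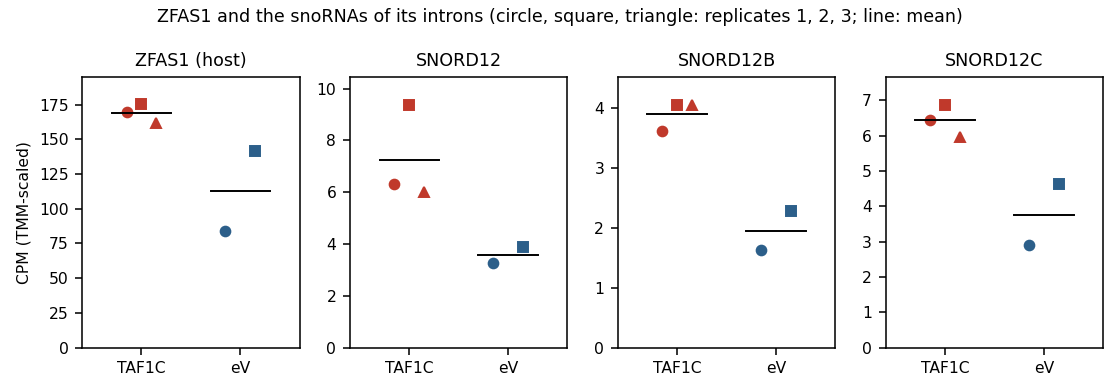
Normalised level (CPM with TMM factors, linear axes from 0) of ZFAS1 and of SNORD12, SNORD12B and SNORD12C in the 3 libraries labelled TAF1C and the 2 empty vector libraries, with group means as lines. In each panel the libraries labelled TAF1C lie above both empty vector libraries, with empty vector replicate 1 the lowest.

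Several hosts lie head to head with another gene or overlap one, and no setting for strand is given in the sources used here, so reads of overlapping partners on the other strand cannot be told apart. By the RefSeq loci, 6 such neighbours were tested, of which 1 rose and 2 fell, beside 15.8% and 22.6% of all genes. SLC3A2, which starts beside SNHG1 on the other strand and encodes the heavy chain of an amino acid transporter, was at 370, 347 and 361 CPM in the libraries labelled TAF1C and at 150.0 and 201 CPM with empty vector. SLC3A2 rose (log2 fold change 1.03 ± 0.16 (SE), edgeR adjusted p = 0.00645), whereas SNHG1 did not pass. ZBTB37, a zinc finger gene that overlaps GAS5, fell (log2 fold change -0.82 ± 0.19 (SE), edgeR adjusted p = 0.0230), a call lost with no filter, with the block and without any 1 of the libraries labelled TAF1C (adjusted p up to 0.0994), and GAS5-AS1 did not pass (log2 fold change 0.51 ± 0.32 (SE), edgeR adjusted p = 0.257). DIPK1B, listed as FAM69B, overlaps SNHG7 and fell (-2.09 ± 0.24 (SE), edgeR adjusted p = 0.00241). The other two did not pass: TRNAU1AP, which overlaps SNHG12 (0.26 ± 0.14 (SE), edgeR adjusted p = 0.199) and MCMDC2, which overlaps SNHG6 (-0.66 ± 0.30 (SE), edgeR adjusted p = 0.127). The tables describe ZFAS1 as antisense to ZNFX1, a gene added after its values were seen. ZNFX1, an antiviral RNA-binding protein, was at 126, 129 and 132 CPM in the libraries labelled TAF1C and at 74.1 and 73.6 CPM with empty vector, and rose (0.81 ± 0.10 (SE), edgeR adjusted p = 0.00297).

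Other noncoding hosts moved in both directions, as did all genes tested (15.8% raised, 22.6% lowered). Of 17 listed, 11 were in the tables and 8 were tested, and of these 2 rose, 1 fell and 5 did not pass, with a median log2 fold change of 0.20 (1 to 4 raised, 1 to 2 lowered when any 1 library was dropped). DANCR, a noncoding RNA known from undifferentiated epidermal cells, was at 33.0, 33.3 and 34.4 CPM in the libraries labelled TAF1C and at 13.7 and 11.3 CPM with empty vector. DANCR rose (1.43 ± 0.15 (SE), edgeR adjusted p = 0.00181), as did SNHG17 (0.88 ± 0.18 (SE), edgeR adjusted p = 0.0128), whose call was lost without any 1 of the libraries labelled TAF1C (adjusted p 0.0561 to 0.0606). SNHG14, the long host of an imprinted snoRNA cluster expressed mainly in neurons, fell to 47.3, 46.7 and 47.6 CPM in the libraries labelled TAF1C, against 170 and 175 CPM with empty vector (-1.87 ± 0.10 (SE), edgeR adjusted p = 0.000265). SNHG3 was at 406, 340.0 and 369 CPM in the libraries labelled TAF1C and at 149 and 341 CPM with empty vector (0.60, edgeR adjusted p = 0.219), with empty vector replicate 2 inside the range of the libraries labelled TAF1C.

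Protein-coding hosts and TOP mRNAs gave counts that turned on single libraries. These counts stand beside 15.8% raised and 22.6% lowered of all genes tested. Of 25 tested coding hosts that are not ribosomal proteins, 3 rose, 0 fell and 22 did not pass (median 0.45), with 0 to 25 raised and 0 to 5 lowered when 1 library was dropped; the 5 came without empty vector replicate 1. The 3 were the chaperones HSPA9 (0.91 ± 0.21 (SE), edgeR adjusted p = 0.0221) and HSPA8 (0.99 ± 0.29 (SE), edgeR adjusted p = 0.0420) and the ribosomal scaffold RACK1, listed as GNB2L1 (0.84 ± 0.23 (SE), edgeR adjusted p = 0.0335). Of 77 tested cytosolic ribosomal proteins, 34 rose, 0 fell and 43 did not pass (median 0.78; 2 to 77 raised and 0 to 4 lowered when 1 library was dropped). RPL28, RPL23A and RPL27 had the smallest adjusted p, with log2 fold changes of 0.998 ± 0.15, 1.05 ± 0.18 and 1.14 ± 0.20 (SE; edgeR adjusted p = 0.00526, 0.00885 and 0.00945). Of 10 other TOP mRNAs, 4 rose (0 to 10 with 1 library left out), among them the poly(A)-binding protein PABPC1 (0.79 ± 0.22 (SE), edgeR adjusted p = 0.0362), and the median was 0.64.

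Proteins that make, trim or decay these RNAs were mixed, beside 15.8% raised and 22.6% lowered of all genes tested. Of 20 snoRNP proteins and assembly factors, 5 rose and 0 fell (median 0.46; 1 to 17 raised and 0 to 4 lowered when 1 library was dropped). The helicase RUVBL2, part of the chaperone that assembles snoRNPs, rose by 1.05 ± 0.17 (SE, edgeR adjusted p = 0.00664) and SNU13, the core protein that binds C/D snoRNAs and is listed as NHP2L1, by 0.92 ± 0.22 (SE, edgeR adjusted p = 0.0217). Of 6 genes for release and trimming of intronic snoRNAs, 1 rose, the deadenylase PARN (0.51 ± 0.15 (SE), edgeR adjusted p = 0.0411; 0 to 3 raised with 1 library left out). Of 20 factors of nonsense-mediated decay, 4 rose and 1 fell (0 to 13 and 0 to 4 with 1 library left out), with UPF1, its central helicase, at 234, 219 and 235 CPM in the libraries labelled TAF1C and 140 and 144 CPM with empty vector (0.69 ± 0.11 (SE), edgeR adjusted p = 0.00668). Of 11 genes of mTOR complex 1 and TOP mRNA control, 4 rose and 2 fell (1 to 7 and 0 to 4 with 1 library left out). RHEB, which activates mTOR complex 1, rose by 1.18 ± 0.15 (SE, edgeR adjusted p = 0.00310), and RPTOR, a subunit of that complex, fell (-0.45 ± 0.11 (SE), edgeR adjusted p = 0.0245).

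Among the fits that left out 1 library, the fewest raised members in each of these 8 lists came without 1 of the libraries labelled TAF1C, and the most without empty vector replicate 2. Without any 1 of the libraries labelled TAF1C the calls of HSPA9, HSPA8, GNB2L1, RPL27, PABPC1, NHP2L1, PARN and RPTOR were lost, and that of UPF1 was lost without TAF1C replicate 1 or 3. Those of DANCR, SNHG14, RPL28, RPL23A, RUVBL2 and RHEB were kept in each of these fits. Calls over all genes fell in these fits too, to between 1057 and 1181 raised and between 1961 and 2047 lowered. With all libraries 2916 genes were raised and 4164 lowered. Empty vector replicate 2 exceeded replicate 1 in 10 of 10 hosts, 77 of 77 ribosomal proteins, 25 of 25 other coding hosts, 10 of 10 other TOP mRNAs and 20 of 20 snoRNP proteins. It did so in 6 of 8 other noncoding hosts, 5 of 6 maturation genes, 14 of 20 decay factors and 9 of 11 genes of TOP control. The share over all tested genes was 48.9%. The median log2 difference between the empty vector libraries was 0.91 in the hosts, 0.74 in the ribosomal proteins and 0.72 in the other coding hosts.

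**Figure D5:**
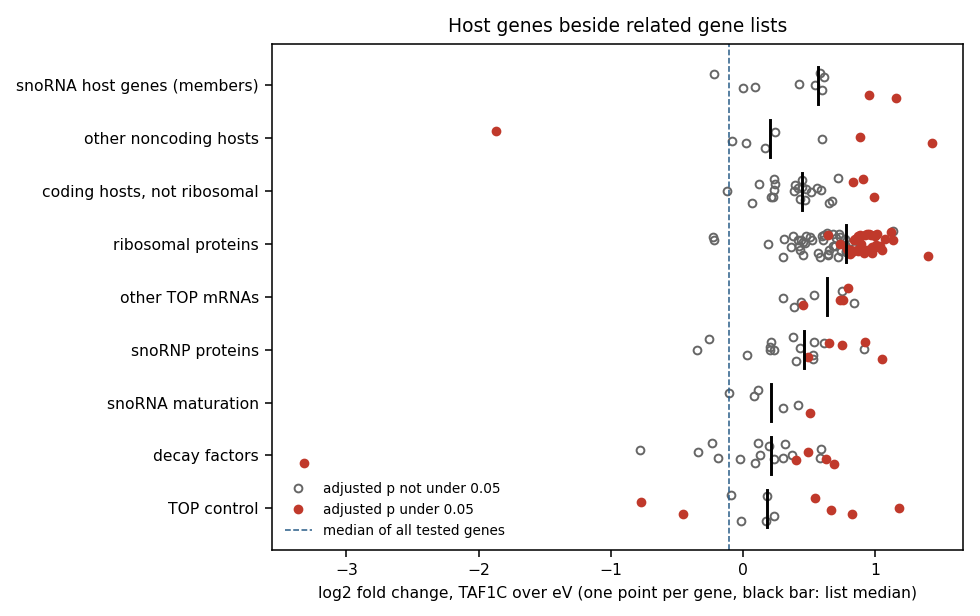
Log2 fold change, libraries labelled TAF1C over empty vector, of every tested gene in the host list and 8 related lists, with filled points for an adjusted p under 0.05, black bars for list medians and a dashed line at the median of all tested genes (-0.10). The host median of 0.57 lies between those of the ribosomal proteins (0.78) and the other coding hosts (0.45), and 2 of 10 host points are filled.

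The genes whose pattern over the 5 libraries was most like the median of the 10 hosts were PAICS, NOLC1, ATF4, PSMB2 and ACTR2. Likeness was the root mean square difference of centred log2 (CPM + 0.5) values over the 5 libraries, among 12122 genes with a mean of at least 5 CPM, and ran from 0.025 for PAICS to 0.032 for ACTR2. NOLC1, a nucleolar phosphoprotein that associates with snoRNPs, was at 320, 348 and 310 CPM in the libraries labelled TAF1C and at 144 and 307 CPM with empty vector. ATF4, a transcription factor of the amino acid stress response, was at 347, 352 and 347 CPM in the libraries labelled TAF1C and at 157 and 335 CPM with empty vector. In both, as in the host median, empty vector replicate 1 lay far below the other 4 libraries, and replicate 2 just below the libraries labelled TAF1C. With 5 libraries the likeness is a description and has no test.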

How the data were processed

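The authors deposited raw counts per Ensembl gene in 1 table for each of the 5 long RNA libraries. The mirVana kit, depletion of ribosomal RNA and NEBNext RNA Ultra libraries were used, per the labels' protocols. The submitters' processing notes name DESeq2, Cufflinks 2.2.1, Trimmomatic 0.36, HISAT2, Bowtie2 2.2.4 and the build hg19, with no role for each tool. The counter, annotation and strand setting are not given in the sources used here. Counts spread over 57773 rows, kept apart by Ensembl ID because 236 symbols stand on more than 1 row. Genes with at least 1 CPM in at least 2 libraries (18401) were tested with edgeR 4.0.16 in R 4.3.3 (quasi-likelihood, TMM, no covariate, two-sided), with Benjamini-Hochberg adjustment over all of them at 0.05. The fit was tested on simulated data with the same dispersion for every gene. That setting leaves out the gap between the empty vector libraries, so it cannot show how the fit performs with such a gap. The SE printed with edgeR is the absolute log2 fold change over the square root of the F statistic of that test. CPM are counts over the counts of tested genes times the TMM factor. Alternatives were library totals, upper-quartile factors, DESeq2 1.42.0, no filter, the replicate number as a block, and each library left out. The members and lists were chosen with earlier results of these data known. Named were all members, their tested snoRNAs and neighbours, and the 5 genes of most like pattern. In each pathway list, at most the 3 called genes of smallest adjusted p were named. SNHG3, ZNFX1, KRT7, EPCAM, ITGB4, FN1, THY1 and ROM1 were added after their values were seen. The text prints most of the named genes. Strand, start and sequence came from RefSeq GRCh38.p14, matched by symbol, so that hg19 coordinates were not used. The small RNA tables were not used here.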

Additional observations from a re-analysis of the deposited data

How the results depend on the processing

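SNHG8 and SNHG12 kept their calls and direction under all 10 alternatives. The count of raised hosts was 2 with every library kept or 1 library labelled TAF1C left out, 3 without empty vector replicate 1 and 9 without replicate 2, and that of lowered hosts ran from 0 to 3. Directions of hosts that never passed with all libraries changed: with 1 library left out SNHG1 ran from -0.12 to 1.13, SNHG5 from -0.95 to 1.03 and SNHG7 from -0.36 to 0.59, with empty vector replicate 1 or 2 left out at each end. SNHG5 was at 0.11 with the replicate number as a block and SNHG7 at -0.091 with library totals. SNHG6 was at -0.20 with library totals, -0.057 with upper-quartile factors, and between -0.25 and 0.19 with 1 library left out. The cause was not tested. The number of raised snoRNAs, 2, became 0 with library totals, upper-quartile factors, no filter and the block, and was 0 to 3 with 1 library left out, with 0 lowered throughout. Over the 8 pathway lists (174 tested genes, 57 raised and 4 lowered) raised members numbered 87 with DESeq2, 23 with no filter, 12 with the block and 5 to 153 with 1 library left out. Lowered ones numbered 8 with library totals, 2 with the block and 1 to 23 with 1 library left out. Neighbours raised numbered 1 to 2 and lowered 1 to 3 with 1 library left out, and 1 was lowered with no filter and with the block. Of the genes called over the whole table, 41.2% were raised; library totals gave 31.1% and no filter 30.0%. The median shift of all genes was -0.10, -0.33 with library totals and -0.27 unfiltered. Same-numbered libraries share only a number: across 18401 genes their deviations correlated at 0.04 and 0.14, the replicate labelled TAF1C 3 has no partner, and the block left 2 hosts raised and, of all genes, 1439 raised and 2693 lowered in place of 2916 and 4164. Of the 35 listed snoRNAs, 8 were matched to a row, and SNORD1B had 39 counts or fewer per library.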
